A study of Mus musculus with 10 samples.

Results

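The genes described here are 34 genes that are known for rising in sensory neurons, or in the ganglion around them, after a peripheral nerve is cut or crushed, other than the core set of Atf3, Sprr1a, Gal, Sox11 and Gap43. They were chosen by gene symbol from a list of such genes, and 33 of the 34 had a row among the 23923 genes of the deposited table. Ankrd1, a muscle and stress-induced nuclear protein, had no row in a table whose lowest total was 6 counts over all libraries, and it was not analysed here. Of the 33, 29 had enough counts to be tested. The other 4, Vip, Crh, Ucn and Il6, are given as counts.

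RNA sequencing of polyadenylated RNA was done on dorsal root ganglia of mice aged 1 month. In 5 samples, named Kif2a_cKO, the floxed Kif2a allele (Kif2a fl/fl) was combined with Avil cre, a recombinase driven in sensory neurons by the advillin gene. The 5 control samples were Kif2a fl/fl without cre, so the groups share the floxed allele, and cre and the deletion cannot be told apart. Kif2a encodes a kinesin that takes microtubules apart. Whether the samples of a group are different animals is not in the labels, and p-values then reflect variation among samples, which may be technical.

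When the axon of a sensory neuron is damaged, transcription factors such as Atf3, Jun, Smad1 and Klf6 act on a program that turns the cell from signalling to growth. Its products include neuropeptides (Vip, Gal), signals to immune cells (Csf1, Il6), receptors for matrix and proteases (Cd44, Plaur, integrins) and proteins of the membrane and cytoskeleton (annexins, galectins, tubulins). Many of these genes are also used by satellite glia, Schwann cells, fibroblasts and macrophages, and in RNA from a whole ganglion fewer cells of a type and less RNA per cell cannot be told apart.

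Total counts ran from 17506135 to 73031457 per library. Kif2a itself lay between 59.5 and 79.7 CPM (counts per 1000000, scaled by library) in controls and between 63.1 and 73.2 CPM in Kif2a_cKO, and this count over all exons and cells does not check the deletion. The defining sensory neuron markers were present in every library, with 0 of 9 at 0 counts anywhere. Their summed level ran from 8084 CPM in control 3 to 13651 CPM among controls. Among Kif2a_cKO libraries it ran from 10229 CPM in Kif2a_cKO 5 to 13261 CPM. Libraries of the same group differed in transcripts of the central nervous system: Mog, a protein of oligodendrocytes, had 19.9, 0.251, 83.5, 0.456 and 26.3 CPM in controls 1 to 5 and 2.03, 0.139, 3.27, 6.10 and 3.10 CPM in Kif2a_cKO 1 to 5. Controls 1, 3 and 5 thus stood apart from controls 2 and 4. Of 14 tested spinal cord markers, all 14 had a log2 fold change below 0 in Kif2a_cKO (median -2.22), 7 of them at an unadjusted p under 0.05 and 0 called in edgeR. Skeletal muscle markers, summed over 8 genes, were highest in control 5 and Kif2a_cKO 5, at 133 and 183 CPM, against 6.85 to 32.9 CPM in the other libraries.

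Upstream sequences are shown for 4 genes because the ATF and AP-1 proteins, of which Atf3 is a member, bind the letters TGANTCA (AP-1) and TGACGTCA (CRE). Sprr1a is the core gene that rose most. Plaur, Il6 and Ucn are among the members that hold such letters, as are Anxa2 and Creb5, which are not shown. Each sequence is the 250 bases before a RefSeq transcript start (GRCm38.p6), 5′ to 3′ on the gene's strand, with matches in capitals. They lie at chr3:92485882-92486131 (minus strand) for Sprr1a, chr7:24462233-24462482 (plus) for Plaur, chr5:30012864-30013113 (plus) for Il6 and chr5:31138896-31139145 (minus) for Ucn.
Sprr1a: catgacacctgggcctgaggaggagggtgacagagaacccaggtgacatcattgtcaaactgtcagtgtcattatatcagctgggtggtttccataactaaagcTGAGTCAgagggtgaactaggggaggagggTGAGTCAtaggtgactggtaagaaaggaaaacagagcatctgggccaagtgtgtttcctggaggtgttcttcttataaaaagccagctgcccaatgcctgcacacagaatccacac
Plaur: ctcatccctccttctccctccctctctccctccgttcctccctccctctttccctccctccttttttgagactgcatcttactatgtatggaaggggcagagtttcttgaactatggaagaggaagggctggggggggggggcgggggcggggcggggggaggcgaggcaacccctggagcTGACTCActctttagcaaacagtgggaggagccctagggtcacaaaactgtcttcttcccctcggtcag
Il6: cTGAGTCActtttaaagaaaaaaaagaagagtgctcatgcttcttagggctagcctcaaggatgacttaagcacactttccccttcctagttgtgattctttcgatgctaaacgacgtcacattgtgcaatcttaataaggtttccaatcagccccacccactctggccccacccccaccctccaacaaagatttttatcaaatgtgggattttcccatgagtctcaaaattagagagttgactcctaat
Ucn: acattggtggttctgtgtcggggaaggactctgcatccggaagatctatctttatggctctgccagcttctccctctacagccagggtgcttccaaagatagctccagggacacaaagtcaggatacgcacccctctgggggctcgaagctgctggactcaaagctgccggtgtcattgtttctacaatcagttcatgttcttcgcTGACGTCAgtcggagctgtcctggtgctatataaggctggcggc
Both motifs read the same on either strand and do not overlap each other. Sprr1a held 2 AP-1 matches, Plaur and Il6 1 each, and Ucn 1 CRE match. RefSeq starts were at hand for 26 of the 34 members (30 starts), of which 4 starts held TGANTCA (13.3%) and 2 held TGACGTCA (6.67%). Over all 32851 starts the shares were 6.75% and 1.55%. Of the 4 core genes with a start at hand, Sprr1a alone held a match, and Atf3, Gal and Sox11 held none. A match describes letters, and binding was not measured.

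None of the 29 tested members was called between Kif2a_cKO and control by edgeR's quasi-likelihood test (Benjamini-Hochberg adjusted p under 0.05 over 17439 genes, which calls 0.0172% of them). Their lowest adjusted p was 0.703. DESeq2 called 0 of 33 (lowest adjusted p = 0.306, with 0.17% of all genes called), and limma-voom called 0 of 29 (lowest adjusted p = 0.701). In the authors' deposited table none of the 33 passed their limits of false discovery rate and 1.5-fold change, which 0.13% of all genes passed. At an unadjusted edgeR p under 0.05, 1 member was higher (Lgals1) and 1 lower (Sdc1), or 3.45% of those tested in each direction, against 2.97% of all tested genes higher and 4.01% lower. These shares are near the background.

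For most members, as for most tested genes, the 95% interval held only changes under 1.5-fold in whole-ganglion RNA. The intervals are for each gene alone, not adjusted for the number of genes, and do not measure change within neurons. The median log2 fold change was 0.01 over the 29 tested members and 0.01 over all tested genes, with 15 members above 0 and 14 below. The lowest was -0.51 (Sez6l) and the highest 0.34 (Lgals1). For 22 of 29 members (75.9%) the 95% interval of the fold change lay within 1.5-fold either way, as it did for 70.1% of all tested genes. The 7 with wider intervals were Fst, Cckbr, Gpr151, Sez6l, Anxa1, Lgals3 and Ptgis. In 28 of the 29 the upper end of the interval lay below the lower end of the interval of Atf3, 0.78 on the log2 scale, and the exception was Cckbr. The share of all tested genes below that limit was not computed, so this count does not set the members apart.

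**Figure D1:**
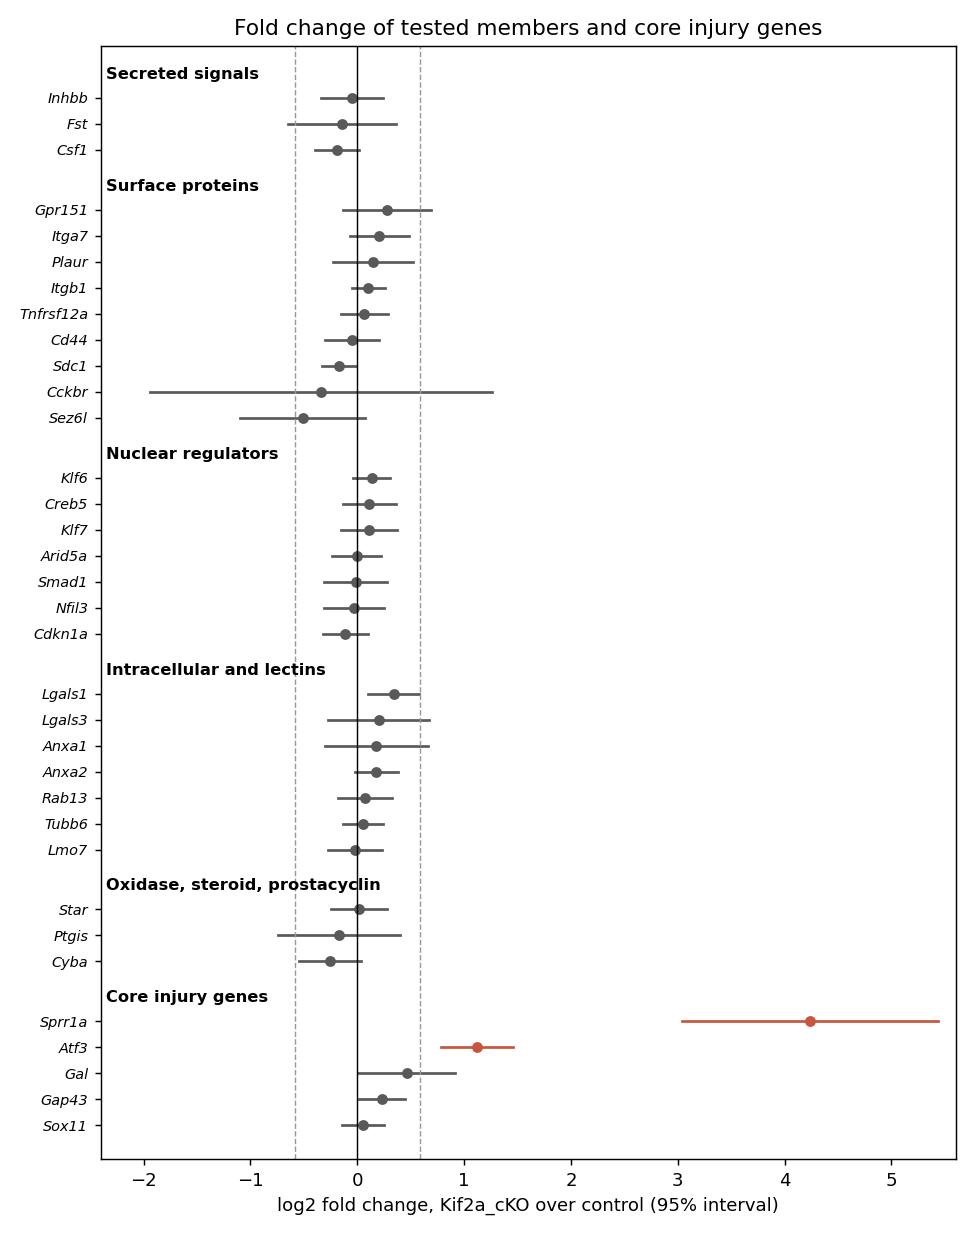
Log2 fold change of Kif2a_cKO over control from edgeR with its 95% interval, for the 29 tested members by role and the 5 core injury genes, with dashed lines at 1.5-fold either way and genes past an adjusted p of 0.05 in red. Atf3 (1.12) and Sprr1a (4.24) lie far to the right of the members, which span -0.51 to 0.34.

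Levels spread over several orders of magnitude. Per kilobase of exon, control means ran from 0.0351 CPM for Ucn to 351 ± 50.1 CPM for Lgals1 (SD, n = 5). Anxa2 followed Lgals1 at 305 ± 32.7, Itgb1 at 90.8 ± 4.54, Cdkn1a at 39.4 ± 4.26 and Klf7 at 23.4 ± 3.72 CPM per kilobase. The libraries of Lgals1 (279 to 403) and Anxa2 (258 to 335) overlapped, while Anxa2 and Itgb1, Itgb1 and Cdkn1a, and Cdkn1a and Klf7 were apart in every control library. From Klf7 downwards neighbours in the order overlapped, as did Cd44 with 13.4 to 20.8 and Itga7 with 11.04 to 18.5 CPM per kilobase, except for Inhbb above Star and Creb5 above Vip. Exon length is the union of all annotated exons, which lowers the value of genes with long or alternative ends such as Creb5.

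**Figure D2:**
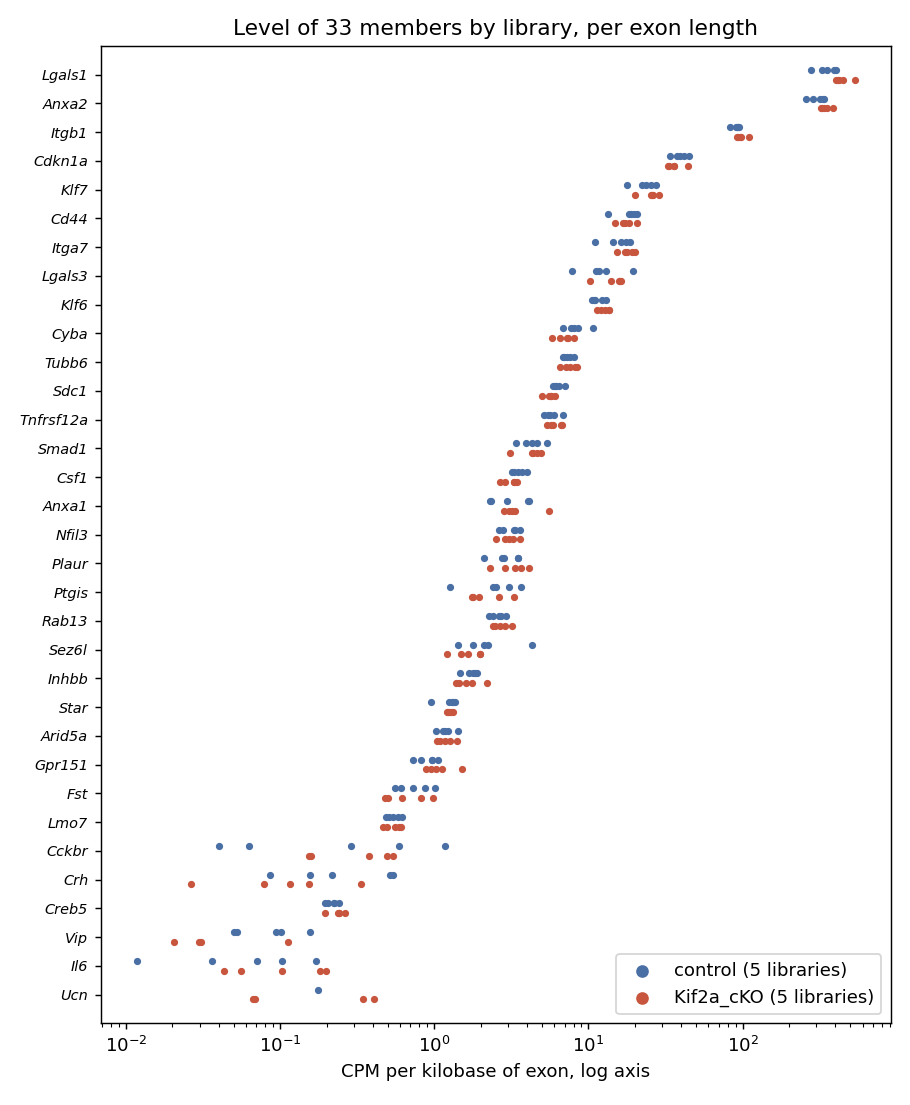
Level of the 33 measured members in each library as CPM per kilobase of exon on a log axis, ordered by the control mean, with controls in blue and Kif2a_cKO in red; libraries with 0 counts are not drawn. Lgals1, Anxa2 and Itgb1 lie at the top, and Ucn, Il6 and Vip at the bottom with widely scattered libraries.

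None of the secreted signals was called. Csf1, the colony-stimulating factor by which injured sensory neurons act on microglia, had 18.5, 16.8, 21.2, 19.7 and 17.4 CPM in controls and 18.3, 17.3, 15.2, 14.0 and 17.3 CPM in Kif2a_cKO. The Kif2a_cKO libraries lay in the lower part of the control range or below it, and the groups overlapped. The means were 18.7 ± 1.77 and 16.4 ± 1.76 CPM (SD, n = 5 in each group; log2 fold change -0.19, SE 0.0946, edgeR adjusted p = 0.709), with an interval from -0.39 to 0.01. Its receptor Csf1r, on macrophages and microglia, differed by -0.20 on the log2 scale (SE 0.162), and Il34, the other ligand of that receptor, by -0.03 (SE 0.0585).

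Inhbb encodes the subunit of activin B, and Fst encodes follistatin, which binds activins and blocks them. Inhbb had 8.10, 6.27, 7.20, 7.87 and 7.55 CPM in controls and 7.43, 6.14, 6.85, 9.31 and 5.90 CPM in Kif2a_cKO, whose libraries enclosed the control range (log2 fold change -0.05, SE 0.136, edgeR adjusted p = 0.974). Fst ran from 2.57 to 4.62 CPM in controls and from 2.20 to 4.52 CPM in Kif2a_cKO (log2 fold change -0.14, SE 0.232). The activin subunit Inhba and the receptors Acvr2a, Acvr2b and Acvr1b, from a list of partner genes, had log2 fold changes between -0.07 and 0.11.

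The 4 peptides and cytokines below the count limit were close to the floor of detection. Vip, vasoactive intestinal peptide, had 12, 5, 18, 3 and 11 counts in controls and 13, 3, 2, 0 and 3 in Kif2a_cKO. Crh, corticotropin-releasing hormone, had 24, 8, 24, 2 and 7 against 15, 1, 3, 11 and 6 counts, and control 3 and control 1 were the highest libraries. Ucn, urocortin, which shares receptors with Crh, was at 0 in 4 controls and had 3 counts in control 3, against 7, 5, 1, 0 and 1 in Kif2a_cKO. Il6, a cytokine that acts through Il6st, had 1, 7, 14, 3 and 3 against 15, 14, 3, 18 and 4 counts. These counts are not scaled by depth, which was greatest in Kif2a_cKO 4 (73031457 counts) and least in control 4 (17506135). The groups overlapped in all 4, and edgeR without a count limit called none of them (adjusted p between 0.743 and 0.901). The log2 fold changes in that fit were -1.34 for Vip (SE 0.718), -1.13 for Crh (SE 0.579), 1.90 for Ucn (SE 1.25) and 0.56 for Il6 (SE 0.593). The receptors Crhr1, Crhr2, Il6ra and Il6st, with log2 fold changes of -0.30 (SE 0.251), 0.28 (SE 0.263), -0.10 (SE 0.132) and 0.00 (SE 0.115), were not called either.

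Among surface proteins, the syndecan Sdc1, a heparan sulfate proteoglycan that binds growth factors and matrix, was the member with the lowest p on the lower side. It had 24.5, 22.4, 23.2, 26.9 and 23.3 CPM in controls and 19.1, 23.0, 21.2, 21.6 and 21.7 CPM in Kif2a_cKO. Control 2 and Kif2a_cKO 2 overlapped, and the other 4 Kif2a_cKO libraries lay below every control. The means were 24.1 ± 1.72 and 21.3 ± 1.42 CPM (SD, n = 5 in each group; log2 fold change -0.17, SE 0.0740, edgeR adjusted p = 0.703). Sdc1 lies on chromosome 12 from 8771323 to 8793715 (GRCm38, plus strand).

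Itgb1, the beta subunit shared by laminin and fibronectin receptors, had 370.0, 373, 340.3, 389 and 380.3 CPM in controls and 381, 376, 398, 392 and 446 CPM in Kif2a_cKO. The libraries overlapped between 376 and 389 CPM (log2 fold change 0.11, SE 0.0727, edgeR adjusted p = 0.788), and the interval ran from -0.05 to 0.26. The Itgb1 value was 0.051 without Kif2a_cKO 5 and 0.059 without control 3. Itga7, the alpha subunit that pairs with it in a laminin receptor, had 132, 149.9, 89.3, 141 and 116 CPM in controls and 154, 163, 145, 139.7 and 124 CPM in Kif2a_cKO. Control 3 was the lowest library and the groups overlapped (log2 fold change 0.21, SE 0.127, edgeR adjusted p = 0.744). With controls 1, 3 and 5 left out the Itga7 value was -0.0055, and without control 3 alone it was 0.092. Itga7 lies on chromosome 10 from 128933818 to 128958282, 1912824 bases beyond Avil, the gene that drives cre and that itself had 314.7 to 449 CPM in Kif2a_cKO against 437 to 849 CPM in controls.

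Cd44, the hyaluronan receptor, ran from 90.9 to 141 CPM in controls and from 101 to 139 CPM in Kif2a_cKO (log2 fold change -0.05, SE 0.116). The receptor for the cytokine TWEAK, Tnfrsf12a, ran from 9.99 to 13.2 and from 10.5 to 13.1 CPM (0.07, SE 0.101). The urokinase receptor Plaur ran from 5.49 to 9.18 and from 5.999 to 10.7 CPM (0.15, SE 0.173), and for the proteases the log2 fold change was 0.11 in Plau (SE 0.148) and -0.21 in Plat (SE 0.105). The orphan receptor Gpr151 had 1.28 to 1.86 CPM in controls and 1.56 to 2.67 CPM in Kif2a_cKO (0.28, SE 0.192). All of these overlapped between the groups.

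Cckbr, a receptor for cholecystokinin and gastrin, varied more than any other tested member, with a coefficient of variation of 109.5% in controls. It had 1.68, 0.179, 3.36, 0.114 and 0.820 CPM in controls and 1.41, 1.07, 0.452, 1.54 and 0.438 CPM in Kif2a_cKO. The controls high in Mog (1, 3 and 5) were also the controls high in Cckbr. Among Kif2a_cKO libraries the match was partial. Kif2a_cKO 4 was highest in both, but Kif2a_cKO 2, lowest in Mog, had more Cckbr (1.07 CPM) than Kif2a_cKO 3 and 5 (0.452 and 0.438 CPM). The source of Cckbr transcripts was not tested. The log2 fold change of Cckbr was -0.34 (SE 0.724) with all libraries. It was 2.69 (SE 0.724, edgeR adjusted p = 0.991) with controls 1, 3 and 5 left out, so its direction depends on those libraries. Without control 3 alone it was 0.41. Sez6l, a neuronal membrane protein, had 12.7, 10.9, 26.0, 8.67 and 13.6 CPM in controls and 12.1, 10.1, 9.11, 11.9 and 7.31 CPM in Kif2a_cKO, with control 3 far above the rest (log2 fold change -0.51, SE 0.266, edgeR adjusted p = 0.718). Without control 3 the Sez6l value was -0.20. The other cholecystokinin receptor, Cckar, from the list of partner genes, was steadier: 25.5, 32.9, 24.4, 30.3 and 29.4 CPM in controls against 37.3, 42.8, 33.5, 39.4 and 32.96 CPM. Every Kif2a_cKO library lay above every control (log2 fold change 0.39, SE 0.0987), as in 0.734% of all tested genes. The edgeR adjusted p was 0.665. The DESeq2 adjusted p of Cckar was 0.148, and its false discovery rate in the authors' deposited table was 0.106.

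**Figure D3:**
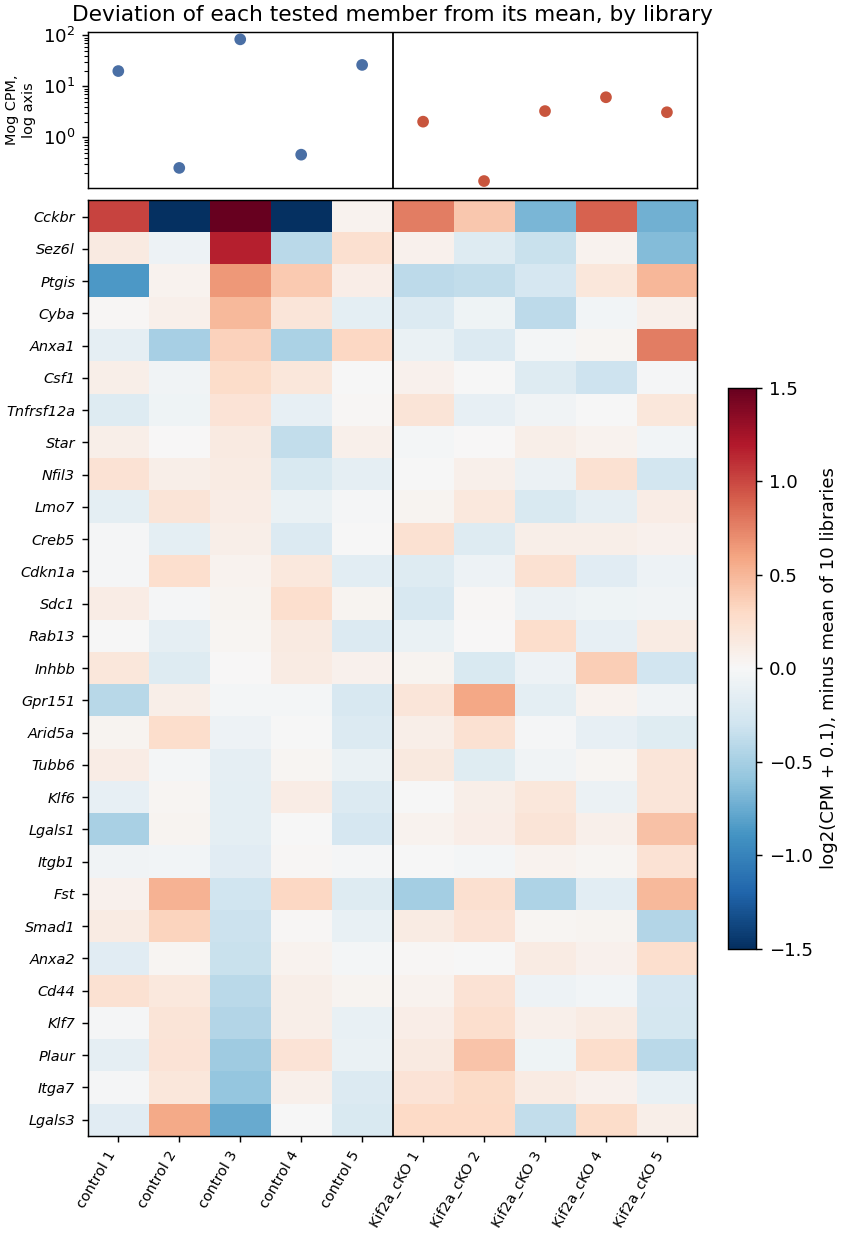
Each tested member's log2(CPM + 0.1) minus its mean over the 10 libraries (rows, ordered by control 3), with the level of the oligodendrocyte gene Mog in the same libraries above on a log axis. Control 3, the library with the most Mog at 83.5 CPM, holds the highest Cckbr and Sez6l and the lowest Lgals3, Itga7, Plaur and Klf7. In all it was the highest library for 7 tested members and the lowest for 7 (24.1% each), against 18.4% and 17% of all tested genes.

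Nuclear regulators had log2 fold changes between -0.11 and 0.13, and the interval lay within 1.5-fold either way for all 7 tested. Klf7, a Krüppel-like factor that promotes axon growth, had 193, 224, 145, 208 and 181 CPM in controls and 209.8, 234, 207, 214 and 163 CPM in Kif2a_cKO. The lowest library of each group was control 3 and Kif2a_cKO 5, as for the summed sensory neuron markers. The groups overlapped in Klf7 (log2 fold change 0.11, SE 0.120, edgeR adjusted p = 0.888). The Klf7 value was 0.013 without control 3 and -0.073 without controls 1, 3 and 5. Its relative Klf6 ran from 46.1 to 57.4 and from 49.8 to 59.9 CPM (0.13, SE 0.0787). Cdkn1a, an inhibitor of the cell cycle, had 133, 159, 139.6, 149 and 119.7 CPM in controls and 117, 127, 157, 119 and 127 CPM in Kif2a_cKO. Kif2a_cKO 3, at 157 CPM, lay above the other Kif2a_cKO libraries, which had 117 to 127 CPM. The log2 fold change was -0.11 with all libraries (SE 0.0978, edgeR adjusted p = 0.847) and -0.20 without Kif2a_cKO 3 (SE 0.0829, edgeR adjusted p = 0.869).

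Smad1, which carries signals of bone morphogenetic proteins to the nucleus, had 27.0 ± 4.67 and 26.8 ± 4.30 CPM (SD, n = 5 in each group; log2 fold change -0.01, SE 0.135). Its partners Smad4, Smad5 and Smad9 and the receptors Bmpr1a and Bmpr2 had log2 fold changes between -0.04 and 0.12. Of the leucine zipper factors, Nfil3 had 6.34 ± 0.818 and 6.21 ± 0.821 CPM (-0.03, SE 0.130) and Creb5 5.45 ± 0.447 and 5.90 ± 0.617 CPM (0.11, SE 0.115). Arid5a, which binds DNA and RNA, had 15.04 ± 1.84 and 14.99 ± 1.76 CPM (-0.01, SE 0.106).

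Among structural and membrane proteins, Lgals1 had the lowest p of all tested members. It encodes galectin-1, a lectin that binds galactosides and is made by sensory neurons, glia and fibroblasts, and lies on chromosome 15 from 78926725 to 78930465 (GRCm38, plus strand). Its level was 252, 364, 318, 353 and 296 CPM in controls and 366, 379.7, 404, 373 and 481 CPM in Kif2a_cKO. Every Kif2a_cKO library lay above every control, by a small margin between control 2 and Kif2a_cKO 1, as in 0.734% of all tested genes. No member had all Kif2a_cKO libraries below all controls, as 0.436% of all tested genes had. The means were 317 ± 45.3 and 401 ± 47.1 CPM (SD, n = 5 each), a log2 fold change of 0.34 (SE 0.111, 95% interval 0.10 to 0.58). The edgeR adjusted p was 0.703, and in the authors' deposited table the log2 fold change was 0.33 with a false discovery rate of 0.243. With controls 1, 3 and 5 left out it was 0.16 (edgeR adjusted p = 0.991), and controls 2 and 4, which remained, held the highest control levels.

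Satellite glia markers shifted along with Lgals1 in part. Of 7 markers 4 had a log2 fold change above 0, and these 4, Fabp7, Apoe, Cdh19 and Ednrb, all had an unadjusted p under 0.05 and an adjusted p over 0.05 in edgeR. Fabp7, a lipid-binding protein of these cells, had 138, 193, 173, 213 and 151 CPM in controls and 217, 200.5, 216, 214 and 282 CPM in Kif2a_cKO. The summed level of the 7 markers ran from 5368 to 8028 CPM in controls and from 5767 to 6996 CPM in Kif2a_cKO, and none was at 0 in any library. The 8 fibroblast markers, summing to 2114 to 2906 and 2245 to 3159 CPM, had a median log2 fold change of -0.05. The 12 macrophage markers, summing to 176 to 323 and 199 to 296 CPM, had one of -0.04. The 10 markers of myelinating Schwann cells, summing to 29455 to 39692 and 21332 to 33676 CPM, had 10 of 10 log2 fold changes below 0. Of these 10, 6 had an unadjusted p under 0.05, and 0 were called in edgeR. Among all tested genes 52.1% had a log2 fold change above 0, and 2.97% were higher and 4.01% lower at that unadjusted limit. The part of these cell types in the Lgals1 value was not tested.

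**Figure D4:**
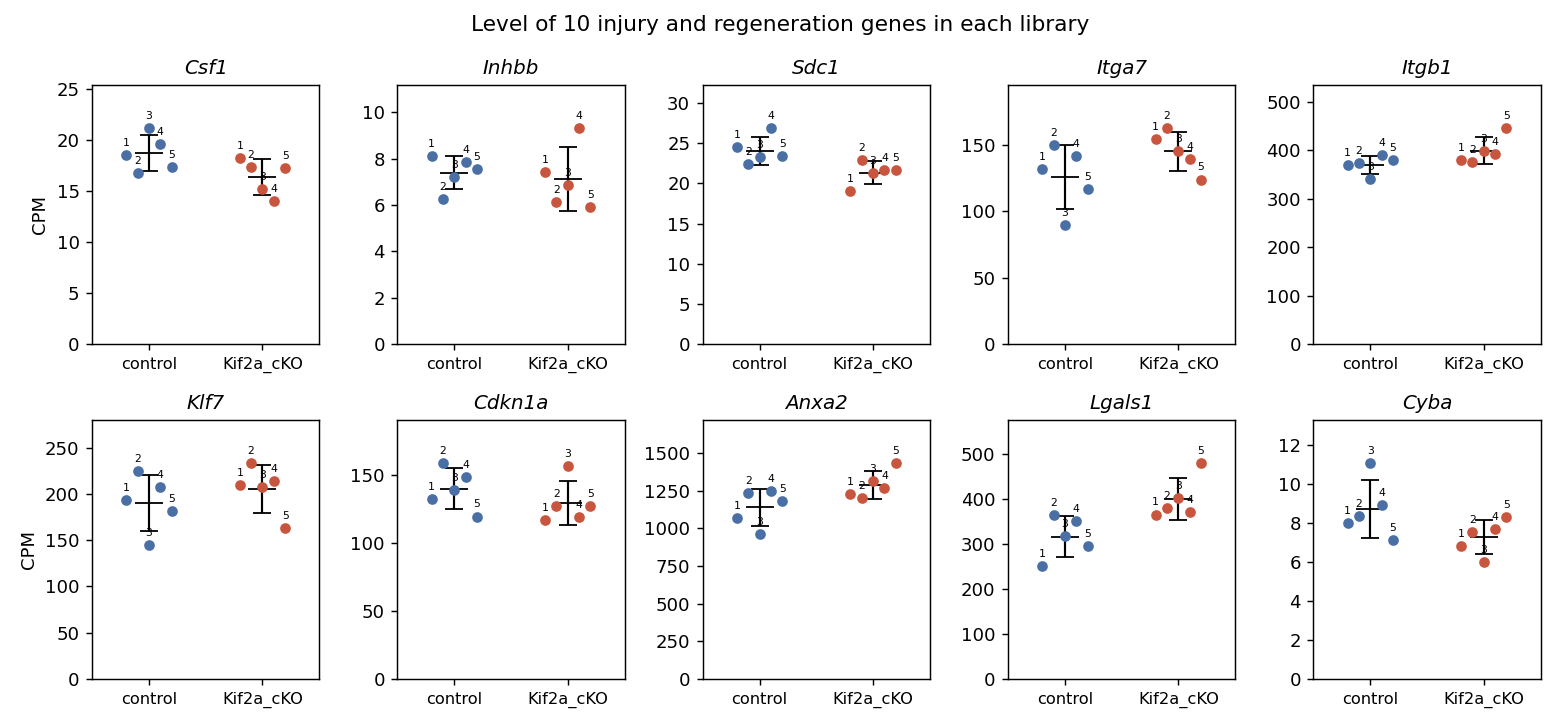
CPM in each library (points, numbered by replicate) with the mean and SD (bars) for the 10 members described by library, controls in blue and Kif2a_cKO in red, each axis from 0. Lgals1 is the panel without overlap, from 252 to 364 CPM in controls and from 366 to 481 CPM in Kif2a_cKO.

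Lgals3, galectin-3, a lectin of macrophages and of some sensory neurons, had 21.7, 36.2, 14.5, 24.2 and 20.8 CPM in controls and 30.1, 29.9, 18.9, 29.4 and 26.0 CPM in Kif2a_cKO, with control 3 lowest and control 2 highest (log2 fold change 0.20, SE 0.214, edgeR adjusted p = 0.889). The Lgals3 value was 0.40 without control 2 and 0.052 without control 3. Anxa2, a calcium-dependent membrane-binding annexin, had 1070.1, 1234, 962, 1251 and 1182 CPM in controls and 1227, 1202, 1314, 1267 and 1435 CPM in Kif2a_cKO. Its 3 highest libraries were from Kif2a_cKO, and the groups overlapped between 1202 and 1251 CPM (log2 fold change 0.18, SE 0.0929, edgeR adjusted p = 0.718). The Anxa2 value was 0.11 without control 3, its lowest library, and 0.11 with limma-voom. S100a10, the small protein that joins Anxa2 in a complex at the membrane, had 468, 542, 482, 531 and 465 CPM in controls and 556, 581, 613, 621 and 713 CPM in Kif2a_cKO. These groups did not overlap (log2 fold change 0.31, SE 0.0857), as in 0.734% of all tested genes in that direction. The edgeR adjusted p was 0.703. S100a10 and Cckar were the only 2 of 31 partner genes with every Kif2a_cKO library above every control. For S100a10 the DESeq2 adjusted p was 0.080, and the false discovery rate in the authors' deposited table was 0.0543. Anxa1, which damps inflammation, had 8.62, 6.67, 12.04, 6.79 and 11.7 CPM against 8.84, 8.22, 9.28, 9.67 and 16.1 CPM, with Kif2a_cKO 5 at the top (0.18, SE 0.221). That library was high in muscle markers and had the highest fibroblast marker sum, 3159 CPM. Control 3, the highest control in Anxa1, had 8.32 CPM of muscle markers and 2906 CPM of fibroblast markers. Control 5, the next in Anxa1 at 11.7 CPM, had 133 CPM of muscle markers and 2429 CPM of fibroblast markers. The part of these cells in the Anxa1 value was not tested. Without Kif2a_cKO 5 the Anxa1 value was -0.045. With controls 1, 3 and 5 left out the Anxa1 value was 0.63 (SE 0.252, edgeR adjusted p = 0.991).

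The remaining structural members overlapped between the groups. Tubb6, a beta-tubulin induced in injured neurons, had 17.9 ± 1.25 and 18.5 ± 1.88 CPM (SD, n = 5 in each group; log2 fold change 0.05, SE 0.0861). Rab13, a small GTPase of membrane traffic, had 5.94 ± 0.565 and 6.25 ± 0.722 CPM (0.07, SE 0.118). Lmo7, a scaffold at cell junctions, had 6.54 ± 0.663 and 6.46 ± 0.734 CPM (-0.02, SE 0.117).

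Of the 3 enzymes and carriers, Cyba, the membrane subunit of the superoxide-making NADPH oxidase of phagocytes, had 8.02, 8.35, 11.1, 8.95 and 7.14 CPM in controls and 6.84, 7.56, 6.02, 7.71 and 8.32 CPM in Kif2a_cKO. Control 3 was highest and the groups overlapped (log2 fold change -0.26, SE 0.133, edgeR adjusted p = 0.718). Without control 3 the Cyba value was -0.17. Cybb and Ncf1, further subunits of that oxidase, differed by 0.05 (SE 0.175) and by -0.05 (SE 0.166) on the log2 scale. Star, which brings cholesterol into mitochondria, had 5.11 ± 0.680 and 5.17 ± 0.186 CPM (0.01, SE 0.120). Ptgis, prostacyclin synthase, ran from 3.25 to 9.44 CPM in controls and from 4.52 to 8.49 CPM in Kif2a_cKO (-0.17, SE 0.261).

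The core genes set a scale for the same libraries, although they were known to differ before they were set beside the members. Atf3 rose from 4.83 to 8.85 CPM in controls to 10.8 to 15.2 CPM in Kif2a_cKO, and Sprr1a from 0.0293 to 0.287 CPM to 1.11 to 5.43 CPM, each with an edgeR adjusted p of 0.0453. Both calls were lost when any of controls 1, 3, 4 and 5 or Kif2a_cKO 1, 2, 4 and 5 was left out (adjusted p from 0.0742 to 0.214), and that of Sprr1a without control 2 (0.112). The log2 fold changes stayed between 1.03 and 1.26 for Atf3 and between 3.93 and 4.45 for Sprr1a when 1 library was left out, and DESeq2 called both (adjusted p = 4.65e-08 and 1.30e-12). With limma-voom Atf3 was called and Sprr1a was not (adjusted p = 0.0301 and 0.333), and without a count filter edgeR also called Atf3 but not Sprr1a (0.0202 and 0.0560). Neither was called in edgeR where 5 libraries had to reach 1 CPM (0.0509 for each). For Gal the log2 fold change was 0.46 (SE 0.207), for Gap43 0.23 (SE 0.0987) and for Sox11 0.05 (SE 0.0908), none of them called. Of 24 further injury genes from a list, 0 were called in edgeR. At an unadjusted p under 0.05, where 2.97% of all tested genes were higher and 4.01% lower, 4 were higher and 0 lower. The 4 were Nts, which encodes neurotensin (2.98, SE 0.470, adjusted p = 0.309), Flrt3, an axon guidance protein (0.33, SE 0.142), Adcyap1, the peptide PACAP (0.26, SE 0.108), and Hspb1, a small heat shock protein (0.29, SE 0.130). DESeq2 called Nts alone of the 24 (adjusted p = 2.76e-05). The median over the list, which was chosen with earlier results of these data known, was 0.07. The transcription factors Jun and Stat3 differed by 0.07 (SE 0.166) and by -0.02 (SE 0.151) on the log2 scale. Of 30 tested partner genes of the members 0 were called, and the median was -0.01. At an unadjusted p under 0.05, Cckar and S100a10 were higher and none lower, beside the same 2.97% and 4.01% of all tested genes.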

How the data were processed

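RNA of dorsal root ganglia from 5 Kif2a_cKO and 5 control samples was measured by polyA sequencing. The authors deposited 1 table with raw counts per gene, a normalized signal (count divided by a size factor), regularized log2 values, and a log2 fold change, p-value and false discovery rate from fdrtools, per the file headers. The raw counts were used for tests, and the authors' own results are quoted where named. The submitters' processing notes name cutadapt, STAR, DESeq2 and mm10, with the counter, annotation and strandedness not given in the sources used here. Overlapping or antisense genes may therefore share counts.

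Counts were fitted with edgeR 4.0.16 in R 4.3.3 (TMM scaling, quasi-likelihood F test, 2 groups, Benjamini-Hochberg adjustment over 17439 genes). The count filter (at least 10 counts in enough libraries, 15 in all) removed 6484 genes. Fold changes and intervals come from that fit, and CPM uses TMM scaling. DESeq2 1.42.0 and limma 3.58.1 were alternatives. The code was tested on simulated data. Totals of 17506135 to 73031457 counts set the precision, and none of the 20 pairs within a group agreed within sampling noise.

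The members and lists were chosen with earlier results of these data known. Library values were to be given for members with an unadjusted p under 0.05 or no overlap and for those of highest level in each role. Further members given by library (Cckbr, Sez6l, Anxa1, Lgals3 and those below the count limit), and partner genes named without an unadjusted p under 0.05, were chosen after their values were seen. Exon lengths and positions come from GENCODE (GRCm38).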

Additional observations from a re-analysis of the deposited data

Results flagged for a closer look

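In 5 of the 66 sets of 5 libraries examined (33 members in each group), 1 library lay far from the other 4 by Dixon's criterion for 5 values, a gap over 0.71 of the whole range. Chance flags about 1 set in 20. Sez6l reached 26.0 CPM in control 3, against 8.67 to 13.6 CPM in the other controls. Cdkn1a reached 157 CPM in Kif2a_cKO 3, against 117 to 127 CPM in the others, and Anxa1 reached 16.1 CPM in Kif2a_cKO 5, against 8.22 to 9.67 CPM. At the floor of detection, Vip had 0.382 CPM in Kif2a_cKO 1, against 0 to 0.104 CPM, and Ucn had 0.0885 CPM in control 3, with 0 in the other controls.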

How the results depend on the processing

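Members called stayed at 0 under every alternative run. Genes called over the whole table went from 3 to 39 with DESeq2 and to 0 where 5 libraries had to reach 1 CPM. Members lower at an unadjusted p under 0.05 went from 1 to 2 with DESeq2 and to 2 with library totals alone. Leaving out 1 library gave 0 to 3 genes called, 1 to 2 members higher and 0 to 3 lower. With the replicate number as a block, 0 genes were called (edgeR adjusted p 0.0766 for Atf3 and 0.0817 for Sprr1a). In that fit 3 members were higher and 1 lower at an unadjusted p under 0.05. Genes past that limit in either direction went from 1217 to 1499 over the whole table. The replicate numbers are not shown to pair the samples: the correlations of same-numbered deviations were 0.177, 0.367, 0.140, -0.147 and 0.252, and 3 of 5 samples correlated best with their own number. Alternatives chosen after seeing the data left out controls 1, 3 and 5 (0 genes called, 9 with DESeq2, and 2 members higher and 0 lower with either tool) or took the spinal cord marker level as a covariate (0 genes called, 2 members higher). Of the 10 members plotted by library, directions turned for Inhbb (0.024 with limma-voom, 0.024 and 0.026 without those controls in edgeR and DESeq2, 0.0057 with the covariate), Itga7 (-0.0055 and -0.0052 without them) and Klf7 (-0.073 with both tools), and the cause was not tested. For counts of members at an unadjusted p under 0.05, shares of all tested genes by direction were computed for the main fit alone. Under the alternatives those counts therefore do not set the members apart. Depth limits Vip, Crh, Ucn and Il6.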
